A study of Drosophila melanogaster with 12 samples.

Results

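The caspases, the apoptosome adaptor Ark and the inhibitors of apoptosis were followed through eye discs that expressed dE2F1/dDP, miR-11 or both. The members were taken by symbol from the authors' deposited table of 13281 genes. Of 10 symbols 9 were found there (Nc, Dredd, Ice, Dcp-1, Damm, Ark, th, Iap2 and Bruce), and decay was not analysed here. Total RNA came from Drosophila melanogaster eye discs of the third larval instar, from animals kept at 25 degrees Celsius. Every genotype carried the driver GMR-Gal4, which turns on UAS transgenes posterior to the morphogenetic furrow, a front of differentiation that sweeps across the disc. The control was GMR-Gal4/+, with no UAS transgene. The others were GMR-Gal4/UAS-miR-11, the driver over + with UAS-dE2F1,UAS-dDP/+, and the driver over UAS-miR-11 with UAS-dE2F1,UAS-dDP/+. Each genotype had 3 biological replicates, and nothing in the labels says how many animals a replicate pooled. Eye discs also hold cells ahead of the furrow, in which the driver is not active.

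In flies, a dying cell switches on rpr, hid (listed as W), grim or skl, whose products bind the inhibitor of apoptosis proteins. Once freed, the initiator caspase Dronc (listed as Nc) assembles with the adaptor Dark (listed as Ark) into the apoptosome and cleaves the effector caspases Drice (listed as Ice) and Dcp-1. Caspases are made as inactive precursors, so much of this control lies in binding, cleavage and ubiquitylation of the proteins, which transcript levels do not show. dE2F1 with its partner dDP activates genes of the cell cycle and can trigger apoptosis in discs, and the gene of miR-11 lies inside an intron of the dE2F1 gene. The comparisons ask whether either transgene moves transcripts of the death machinery itself.

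The transgene Dp stood 7.23-fold higher with dE2F1/dDP and 6.63-fold higher with all 3 transgenes in the authors' deposited table, while E2f was at log2 0.34 and 0.33 and was not called. Replicate arrays were far apart: 63.1% of the variance lay on 1 principal component, on which every genotype overlapped the control. Mean scores there (± SD, n = 3) were 12.9 ± 32.2 for control arrays, 23.3 ± 58.7 for miR-11, -20.1 ± 47.3 for dE2F1/dDP and -16.1 ± 16.2 for all 3 transgenes. Over 18769 probe sets the standard error of a log2 difference between 2 genotypes, by limma, had a median of 0.17 and a 90th percentile of 0.44. The smallest change that limma called at an adjusted p under 0.05 was a log2 size of 0.56 with miR-11 alone, 0.94 with dE2F1/dDP and 0.71 with all 3 transgenes. These values describe probe sets at large and no single member, since the table gives no value per array and probe sets carry no gene names. The members' own measures of error are the authors' p-values and estimates of false positives, given below.

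None of the 9 genes was called in any of the 3 comparisons. A gene was called at an estimated proportion of false positives (pfp, which can exceed 1) under 0.05, and this held for 0.452% of all genes with miR-11 alone, 0.346% with dE2F1/dDP and 0.851% with all 3 transgenes in the authors' deposited table. With shares so low, 0 of 9 is near the background. The lowest pfp of any member was 0.67, for Bruce with dE2F1/dDP, in the authors' deposited table. At an unadjusted one-sided p under 0.05, Bruce passed as lower with miR-11 (3.39% of all genes did) and as higher with dE2F1/dDP (6.12% did), and no member passed with all 3 transgenes (7.45% of genes did as higher and 7.05% as lower), in the authors' deposited table.

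The changes were small in each genotype. The largest of the 27 changes was a 1.36-fold higher level, for Bruce with all 3 transgenes, in the authors' deposited table. The median absolute log2 change of the 9 genes was 0.08 with miR-11 alone, 0.16 with dE2F1/dDP and 0.23 with all 3 transgenes, beside 0.11, 0.16 and 0.14 over all genes of the authors' deposited table. The largest member change in each comparison was 0.33, 0.43 and 0.44 on the log2 scale, a size that 11.1%, 17.5% and 13.5% of all genes reached in the authors' deposited table. All 3 lie below the smallest change that limma called on a probe set in the same comparison. They also lie below the smallest change of a gene called in the authors' deposited table, a log2 size of 1.30, 1.16 and 0.94 in the same order. RNA from whole discs was measured, so fewer cells of a type and less RNA per cell cannot be told apart.

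**Figure D1:**
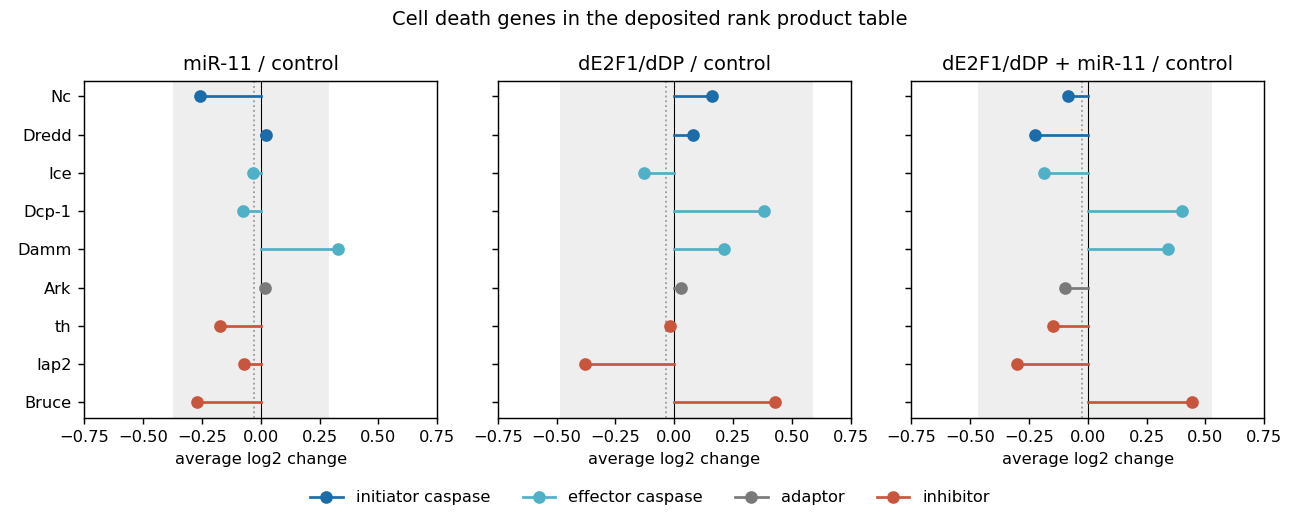
Average log2 change of each gene over the control in the authors' deposited table, 1 panel per transgenic genotype, coloured by role. The grey band spans the middle 90% of all 13281 genes and the dotted line their median. Damm with miR-11 alone (0.33) lies outside the band, whose upper edge there is 0.29.

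Nc, the initiator caspase of the apoptosome, stood at log2 -0.26 with miR-11 alone, 0.16 with dE2F1/dDP and -0.08 with all 3 transgenes in the authors' deposited table. Its smallest one-sided p was 0.347, for lower expression with miR-11, in the authors' deposited table. Both genotypes with miR-11 had negative values and the genotype without it a positive one. Ark, which recruits Nc, was nearest to no change, at log2 0.02, 0.03 and -0.10 in the same order in the authors' deposited table. No p of Ark was below 0.49 in either direction in the authors' deposited table. Dredd, an initiator caspase best known for its part in the Imd immune pathway, stood at log2 0.02, 0.08 and -0.23 in the authors' deposited table. Its lowest p was 0.118, for lower expression with all 3 transgenes, in the authors' deposited table.

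Genes with 3 changes near those of Ark were looked for in the authors' deposited table. The 3 nearest by Euclidean distance over the 3 log2 changes were CG42233 (distance 0.0057), CG34161 (0.014) and CG14632 (0.014). Of 13281 genes, 90 lay within 0.05 and 746 within 0.1 in the authors' deposited table. The 3 changes share the control arrays, so this likeness is a description of small values.

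Of the effector caspases, Dcp-1 and Damm stood higher in both genotypes with dE2F1/dDP, and Ice stood slightly lower. Dcp-1, which acts beside Ice and also in starvation-induced death in the ovary, was at log2 -0.08 with miR-11, 0.38 with dE2F1/dDP (1.30-fold, p for higher = 0.152) and 0.40 with all 3 transgenes (1.32-fold, p for higher = 0.114) in the authors' deposited table. Damm, a caspase with less well-defined roles, was positive in all 3 genotypes at log2 0.33, 0.21 and 0.34, with p for higher of 0.159, 0.311 and 0.087 in the authors' deposited table. Ice, the main effector caspase, was negative in all 3 at log2 -0.03, -0.13 and -0.19, with no p under 0.30 for lower expression in the authors' deposited table. The 2 caspases that Nc is known to cleave, Ice and Dcp-1, thus had opposite signs in both genotypes with dE2F1/dDP, and neither value passed the test. The median log2 change of the 5 caspases was -0.03, 0.16 and -0.08 with miR-11, dE2F1/dDP and all 3 transgenes, beside -0.03, -0.03 and -0.03 over all genes of the authors' deposited table.

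The 3 inhibitors did not share a direction in the genotypes with dE2F1/dDP. The product of th, known as Diap1, holds Nc and the effector caspases in check and is the inhibitor on which most fly cells depend. It was at log2 -0.17 with miR-11 alone, -0.02 with dE2F1/dDP and -0.15 with all 3 transgenes in the authors' deposited table. With each comparison centred on the median of all genes, th with dE2F1/dDP turned to 0.02. Its smallest p was 0.181, for lower expression with all 3 transgenes, in the authors' deposited table. Iap2, which binds Ice and serves immune signalling, stood at log2 -0.07, -0.38 and -0.30 in the same order in the authors' deposited table. Its p for lower expression was 0.0763 with dE2F1/dDP and 0.088 with all 3 transgenes in the authors' deposited table. Bruce, a very large ubiquitin-conjugating enzyme with an inhibitor of apoptosis domain, shared the negative sign of th and Iap2 with miR-11 alone and was positive in both genotypes with dE2F1/dDP, at log2 -0.27 with miR-11 alone, 0.43 with dE2F1/dDP and 0.44 with all 3 transgenes in the authors' deposited table. Its p was 0.0452 for lower expression with miR-11, 0.0326 for higher with dE2F1/dDP and 0.0574 for higher with all 3 transgenes in the authors' deposited table.

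Bruce stood apart from the other members in the low sum of its p-values for higher and for lower expression. Its p against the direction of change was 0.213, 0.248 and 0.442 with miR-11, dE2F1/dDP and all 3 transgenes in the authors' deposited table. As usually computed, a rank product takes the geometric mean of a gene's ranks over pairs of arrays, once from the top and once from the bottom, so a gene ranked high in some pairs and low in others can have a low p both ways. The 2 p-values of Bruce summed to 0.258 with miR-11 alone, 0.281 with dE2F1/dDP and 0.499 with all 3 transgenes in the authors' deposited table, against medians over all genes of 1.04, 1.07 and 1.06. These sums ranked among the lowest 1.40%, 0.663% and 1.71% of all genes of the authors' deposited table. The other 8 members had sums from 0.803 (Dcp-1 with miR-11) to 1.30 (Ark with dE2F1/dDP) in the authors' deposited table. No ranks per array were available, and the 3 comparisons share the control arrays.

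**Figure D2:**
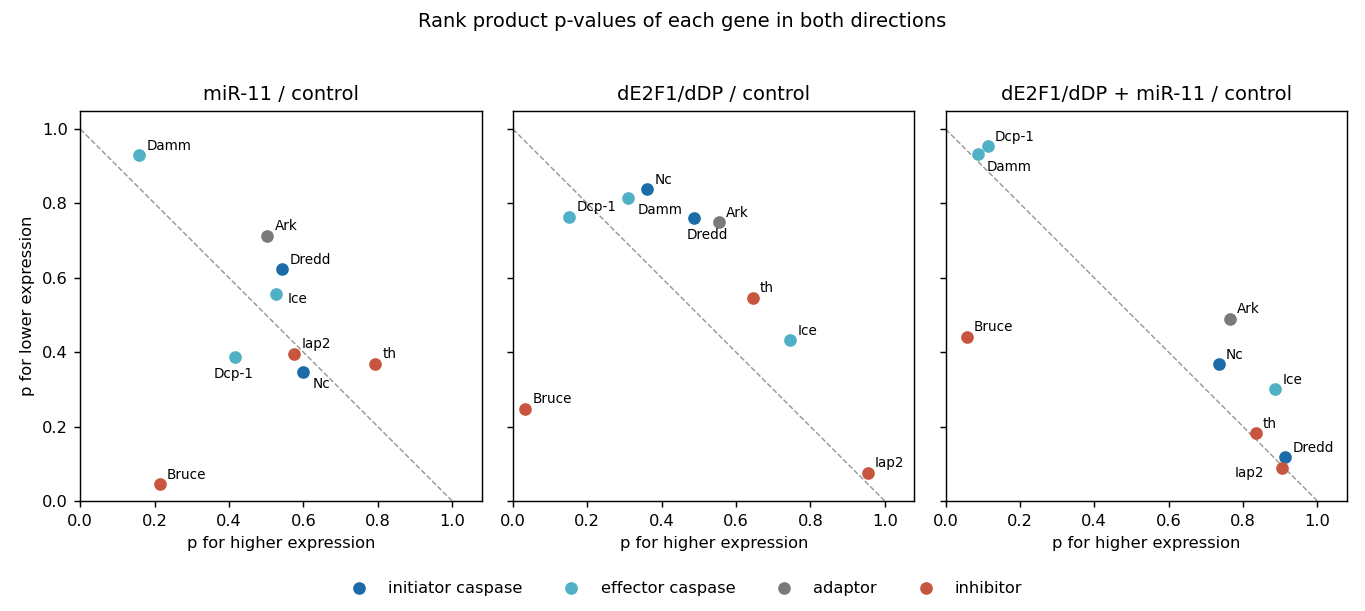
One-sided rank product p-values of the 9 genes from the authors' deposited table, for higher expression on the horizontal axis and for lower on the vertical, 1 panel per transgenic genotype over the control. The dashed line marks sums of 1. Bruce lies well below it in every panel (sums of 0.258, 0.281 and 0.499), while the other genes lie near or above it.

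Each transgene can be measured on a pair of array sets that have no array in common, once without and once with the other transgene. The effect of dE2F1/dDP is its difference from the control, and, on the other 6 arrays, the difference of all 3 transgenes from miR-11 alone. For Bruce these were log2 0.43 and 0.71, and for Dcp-1 0.38 and 0.48, from the authors' deposited table. In the authors' deposited table Nc stood at 0.16 and 0.17, the same sign and nearly the same size on both sets. Of all genes, 17.1% were at least 0.16 in both. On the negative side of the authors' deposited table, Iap2 was at -0.38 and -0.23 and Ice at -0.13 and -0.15. Damm stood at 0.21 and 0.01, and Dredd (0.08 and -0.25), Ark (0.03 and -0.11) and th (-0.02 and 0.03) had opposite signs on the 2 sets, from the authors' deposited table. In all, 6 of 9 members had the same sign on both sets, as did 70.2% of all genes of the authors' deposited table, so the members' share is near that of genes at large. Of all genes, 5.80% were at least 0.43 in both sets, the smaller of the values of Bruce, and 7.43% were at least 0.38, the smaller of those of Dcp-1. These differences have no test per gene.

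miR-11 was measured in the same way. Its difference from the control and the difference of all 3 transgenes from dE2F1/dDP alone were log2 -0.26 and -0.24 for Nc, from the authors' deposited table. The values of Nc ranked in the lowest 11.5% and 7.01% of all genes on the 2 sets, and that of Dredd in the lowest 4.31% on the second. The share of genes as low as Nc on both sets was not counted. The rank product p of Nc for lower expression with miR-11 alone was 0.347 in the authors' deposited table. From the authors' deposited table, the pair for th was -0.17 and -0.13, and for Damm 0.33 and 0.13. Bruce was at -0.27 and 0.02, and Dredd at 0.02 and -0.31, so each was close to 0 on 1 of the 2 sets of the authors' deposited table. Dcp-1 (-0.08 and 0.02), Iap2 (-0.07 and 0.08) and Ark (0.02 and -0.12) had opposite signs, and Ice stood at -0.03 and -0.06, from the authors' deposited table. The same sign on both sets was seen in 4 of 9 members and in 51.5% of all genes of the authors' deposited table. The interaction, the second value less the first, ranged from -0.33 for Dredd to 0.29 for Bruce in the authors' deposited table. It could not be tested for named genes. The median standard error of an interaction over probe sets was 0.24 by limma.

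**Figure D3:**
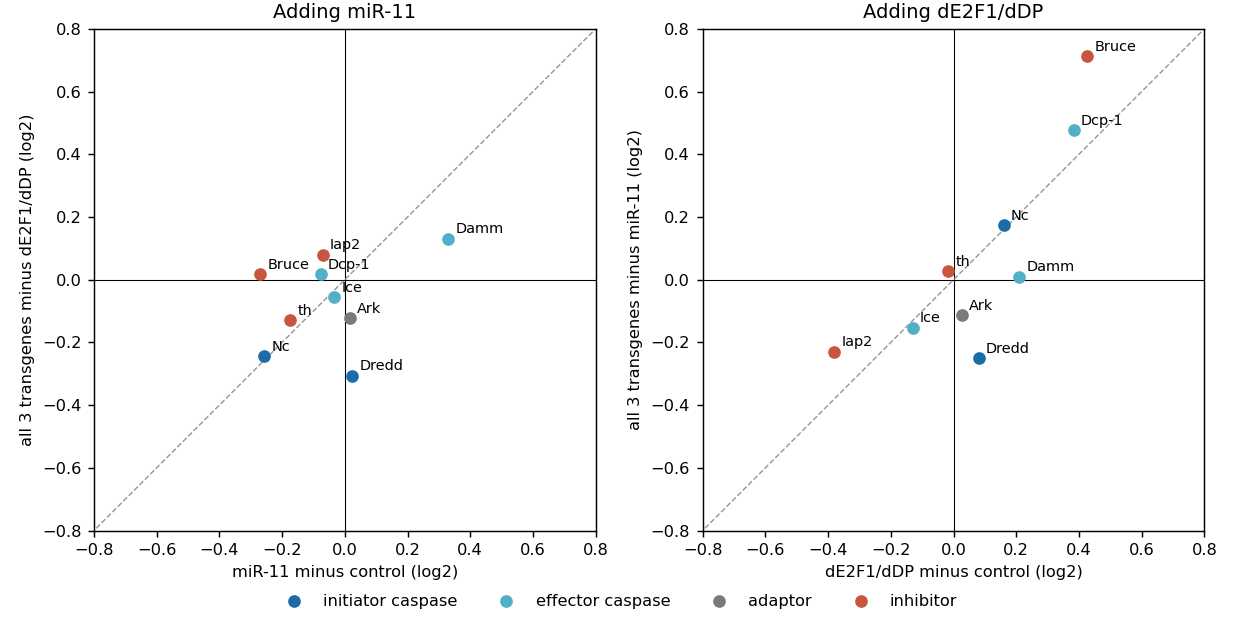
Log2 effect of adding miR-11 (left) or dE2F1/dDP (right) to each of the 9 genes, without the other transgene on the horizontal axis and with it on the vertical, from the authors' deposited table. The axes of a panel rest on different arrays, and the dashed line marks equal effects. Bruce (0.43 and 0.71) and Dcp-1 (0.38 and 0.48) lie at the upper right of the dE2F1/dDP panel, and Nc (-0.26 and -0.24) at the lower left of the miR-11 panel.

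The rest of the apoptosis pathway was read from a list of 34 genes, of which 31 were found. None of the 31 was called in any comparison of the authors' deposited table, and their median log2 changes were -0.03 with miR-11 alone, 0.07 with dE2F1/dDP and 0.03 with all 3 transgenes. At an unadjusted p under 0.05, 0 of the 31 passed with miR-11, where 6.94% of all genes passed in either direction. With dE2F1/dDP 5 of 31 passed as higher, beside 6.12% of all genes. With all 3 transgenes 5 of 31 passed as higher (7.45% of all genes) and 3 of 31 as lower (7.05%), in the authors' deposited table. The list's shares were not tested against those of all genes. Upstream of the inhibitors, rpr stood at log2 -0.17, 0.07 and 0.03 with miR-11, dE2F1/dDP and all 3 transgenes, W at 0.07, 0.33 and 0.05, grim at -0.05, -0.05 and 0.08, and skl at -0.42, -0.33 and -0.32 in the authors' deposited table. skl was negative in all 3 genotypes, and the other 3 were not.

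The smallest p-values of the list with dE2F1/dDP belonged to CG17836 and Rep4. CG17836, which encodes the stress-responsive transcription factor Xrp1, was at log2 0.94 (p = 0.0021, pfp = 0.308), and Rep4, the caspase-activated DNase that fragments DNA in dying cells, at log2 0.75 (p = 0.0084, pfp = 0.494), in the authors' deposited table. Rep4 acts downstream of the effector caspases. Below 0 with dE2F1/dDP stood skl (p = 0.0987) and p53 (log2 -0.37, p = 0.106) in the authors' deposited table. With all 3 transgenes CG17836 was at log2 0.82 (p = 0.0038) and puc, a phosphatase that restrains JNK, at 0.68 (p = 0.0115), in the authors' deposited table. The Bcl-2 family gene Buffy was at log2 -0.57 (p = 0.0153) and morgue, which promotes the breakdown of the th product, at -0.36 (p = 0.0284) in the same genotype of the authors' deposited table. With miR-11 the smallest p-values were those of Buffy (log2 0.20, p = 0.0585) and Cyt-c-p, a cytochrome c gene (0.12, p = 0.163), among the positive values, and of skl (p = 0.0614) and Tango7, which works with the apoptosome (-0.45, p = 0.0676), among the negative ones, in the authors' deposited table.

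Markers of the disc and of tissues next to it were read in the same comparisons. Of 12 eye disc markers none was called in any of them, but 11 were positive with dE2F1/dDP (median log2 0.45, range -0.69 to 0.63) and 11 with all 3 transgenes (median 0.34) in the authors' deposited table. Between all 3 transgenes and miR-11 alone their median was 0.43. Dcp-1 (0.38, 0.40 and 0.48 in these contrasts of the authors' deposited table) lay near those medians. Bruce (0.43, 0.44 and 0.71) lay near the first and above the highest marker (0.69) in the contrast with miR-11 alone, from the authors' deposited table. The part of disc content in these values was not tested. All 10 listed salivary gland markers were negative with all 3 transgenes (median -1.27, from -1.93 to -0.09), and 9 of 10 were positive with miR-11 (median 1.44) and 8 with dE2F1/dDP (median 1.03) in the authors' deposited table. Of the 10, 2 were called higher with miR-11, 3 higher with dE2F1/dDP and 5 lower with all 3 transgenes. The shares of all genes called were 0.452%, 0.346% and 0.851%. Fat body markers had medians of 1.06, -0.47 and -0.39 over 9 genes, muscle markers 0.11, 0.17 and 0.91 over 9, and hemocyte markers 0.24, 0.05 and 0.37 over 9, with miR-11, dE2F1/dDP and all 3 transgenes in the authors' deposited table. Of the 9 fat body genes, 8 were positive with miR-11 (range -1.42 to 1.98), 2 with dE2F1/dDP and 1 with all 3 transgenes. With miR-11, 2 of them were called higher. Obp44a went the other way there, at log2 -1.42, -1.68 and -1.47 in the same order. It was called lower in all 3 comparisons of the authors' deposited table. The part of salivary gland, fat body, muscle and hemocyte content in the members' values was not tested either. The table gives changes and no levels, so whether the defining markers were near background on an array could not be read.

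**Figure D4:**
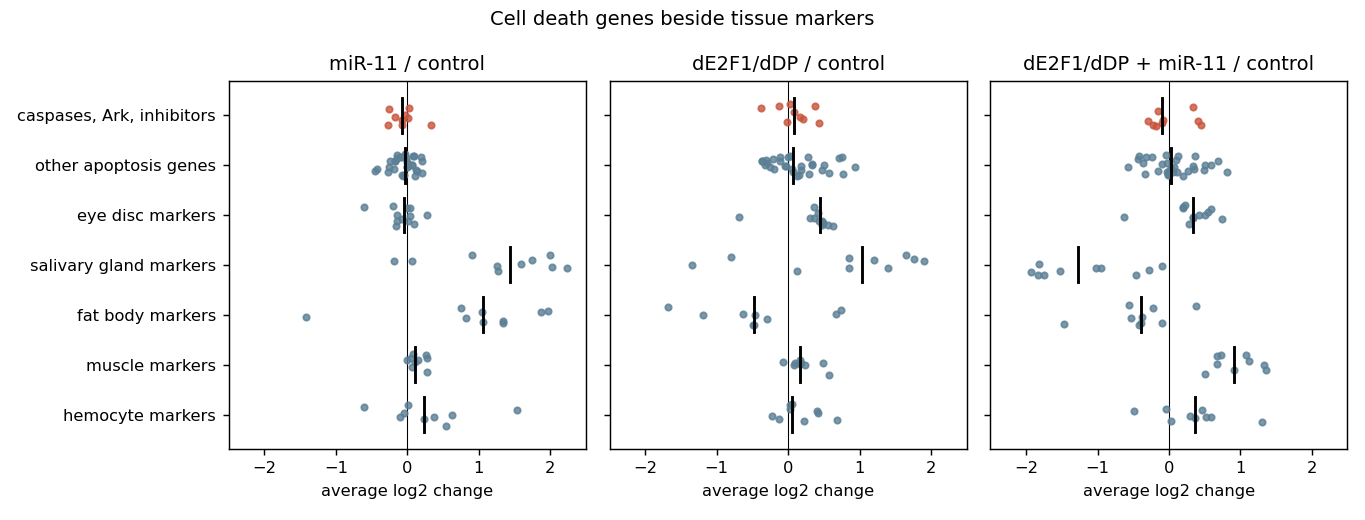
Average log2 change over the control of the 9 genes, the other 31 apoptosis genes and markers of 5 tissues or cell types, from the authors' deposited table. Points are genes, spread vertically for sight only, and bars are medians. The 9 genes lie between -0.38 and 0.44 and the other apoptosis genes between -0.57 and 0.94, while salivary gland markers run from a median of 1.44 with miR-11 to -1.27 with all 3 transgenes.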

How the data were processed

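Larval eye discs of 4 genotypes, with 3 biological replicates each, were hybridised to Affymetrix arrays, from 100 ng of total RNA per the labels' protocols. The authors' deposited table gives, for 13281 genes and each transgenic genotype over the control, an average log2 fold change, a pair of one-sided p-values (higher, lower) and pfp, a score estimating the proportion of false positives, per the file headers and the deposited note. The file name and columns are those of the rank product method. Its settings were not stated. A second deposited file holds log2 values of 18952 probe sets on 12 arrays. The tool affy is named per the submitters' processing notes, while background correction, normalization and summary were not stated.

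Probe sets have no gene names in the sources used here and none was named from its values, so no member has a value per array, an SD or an n. To check that both files describe the same arrays, the 301 genes whose log2 change reached 1 in size in any comparison were searched for among probe sets. All (100%) had one within 0.01 in the 3 changes, and 0% did once the comparisons were permuted. Differences between transgenic genotypes were therefore formed from the table's changes. They have no test. Genes were called at pfp under 0.05 in the direction of their change. The typical error came from limma (version 3.58.1, R 4.3.3; moderated two-sided test with Benjamini-Hochberg adjustment) on 18769 probe sets other than Affymetrix controls, with genotype as the only term. It was tested on simulated data. No test over arrays could be made for named genes, which departs from the planned test of members on arrays. The number of arrays limits the precision.

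Members, gene lists and tests were chosen with earlier results of these data known. Named besides the members are E2f, Dp, rpr, W, grim, skl, called genes of the other apoptosis genes, the 2 with the smallest p in each direction and comparison, and the 3 genes nearest to Ark. Other genes are named for their place in a list and were chosen after their values were seen. Replicate numbers recur across genotypes in the labels. After group means were subtracted, the correlations of the 18 pairs of arrays with a shared number ran from -0.66 to 0.84. Of these pairs 6 were over 0.1, so the numbers were left out of the main fit. Alternatives were quantile normalization, a filter on dim probe sets, a fit on the compared arrays alone, a replicate block, an intensity trend with robust variances, each array left out, other call rules and centring of the table.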

Additional observations from a re-analysis of the deposited data

Results flagged for a closer look

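On the arrays, limma called 9 probe sets for the interaction of miR-11 and dE2F1/dDP, that is, probe sets whose change with miR-11 differed between discs with and without dE2F1/dDP at an adjusted p under 0.05. The count became 16 without miR-11 replicate 1. The probe sets carry no gene names, and none was assigned to a member.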

How the results depend on the processing

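No member was called at pfp under 0.1, after Benjamini-Hochberg adjustment of the doubled smaller p (lowest adjusted p 0.697) or after centring, in any comparison of the authors' deposited table. Centring turned the sign of 1 of the 27 member changes, th with dE2F1/dDP, from -0.0167 to 0.0166. Over all genes, 77 were called with dE2F1/dDP at pfp under 0.1, against 46. Counts of probe sets called by limma were 29 for miR-11, 12 for dE2F1/dDP and 17 for all 3 transgenes against the control, 7 and 10 for all 3 against dE2F1/dDP and against miR-11, and 9 for the interaction. On the compared arrays alone they fell to 10, 4, 4 and 3 for miR-11, dE2F1/dDP and the 2 contrasts with all 3 transgenes against dE2F1/dDP and miR-11. With the replicate block they were 7 for dE2F1/dDP and 3 for all 3 transgenes against miR-11, and other counts moved by less than 1.5 times. Quantile normalization gave 3 for all 3 transgenes against miR-11, and leaving out dim probe sets gave 5 for the interaction. Leaving out single arrays gave 14 to 45, 5 to 19, 9 to 18, 4 to 7, 3 to 48 and 7 to 16 in the order above. Single arrays moved a count by over 1.5 times as follows. For miR-11 these were control replicate 3 (14) and miR-11 replicates 1 (45) and 2 (16). For dE2F1/dDP they were control replicates 1 (7) and 3 (5), dE2F1/dDP replicates 1 (5), 2 (6) and 3 (7), miR-11 replicates 2 (6) and 3 (19), and replicate 3 of all 3 transgenes (6). For all 3 transgenes they were control replicate 3 (9) and replicates 1 (10) and 3 (9) of all 3, and against dE2F1/dDP replicates 1 and 3 of all 3 (4 each). Against miR-11 they were miR-11 replicates 1 (48) and 2 (5), control replicates 2 (5) and 3 (3), dE2F1/dDP replicates 1, 2 and 3 (4, 4 and 3) and each replicate of all 3 (3). For the interaction it was miR-11 replicate 1 (16). The table could not be recomputed without an array. The cause of these differences was not tested.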

Other observations

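The sum of the p-values for higher and lower expression ranked at or below 1.71% in all 3 comparisons for 27 genes of the authors' deposited table, 0.203% of its genes. That limit is the highest of the 3 ranks of Bruce, so Bruce is in the set by construction. With a set so small, the absence of the 31 other apoptosis genes from it is near the background. The set held the salivary glue genes ng1, ng3, Sgs5 and Sgs7 and the fat body gene Obp99b, all 5 of them from the marker lists, and the neuropeptide precursor gene Nplp2, which had the lowest sums (0.0242, 0.0442 and 0.0515) in the authors' deposited table. HERC2, a gene for a very large ubiquitin ligase, was in it with log2 changes of -0.53, 0.33 and 0.89 for miR-11, dE2F1/dDP and all 3 transgenes in the authors' deposited table, the same signs as those of Bruce. With Bruce, 5 of the 27 had these signs, the others being DIP1 (-0.60, 0.82 and 0.60), CG8170 (-0.24, 0.09 and 0.52) and the heterochromatin gene Su(var)2-HP2 (-0.09, 0.70 and 0.53) in the authors' deposited table. The share of all genes with the signs of Bruce was not counted, and no likeness to Bruce was tested. These genes were chosen after their values were seen, and the comparisons share the control arrays.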
